A study of Mus musculus with 6 samples.

Results

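The 10 genes described here encode secreted acute phase proteins of the liver. They are the serum amyloid A genes *Saa1*, *Saa2*, *Saa3* and *Saa4*, the orosomucoid genes *Orm1*, *Orm2* and *Orm3*, lipocalin 2 (*Lcn2*), haptoglobin (*Hp*) and C-reactive protein (*Crp*). They were chosen by name, by membership of these families, out of 21528 genes listed in at least 1 library, with earlier results of these data known. Liver RNA of 3 WT mice and 3 TRIM24C52/55A mice was sequenced, with 1 library per mouse. TRIM24 is a RING-type E3 ubiquitin ligase, and the TRIM24C52/55A mice are homozygous knock-ins in which a pair of cysteines of the endogenous protein is replaced by alanine. The allele was made by genome editing in C57Bl/6J mice and is not restricted to the liver. All 6 mice are labelled C57BL/6, were 5 months old and had eaten a high-fat diet, with 60% fat, for 3 months, so neither genotype has a chow-fed control. The WT mice were littermates from crosses of heterozygotes.

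The acute phase response is the change in liver secretion that follows infection, tissue damage or chronic inflammation. Interleukin 6 acts through gp130 and STAT3, and interleukin 1 and TNF act through NF-kB, and both routes work with C/EBP factors on the promoters of these genes in hepatocytes. SAA1 and SAA2 are inducible apolipoproteins of HDL, SAA3 is made in many tissues including macrophages and fat, and SAA4 is the constitutive member of the family. Orosomucoids are plasma glycoproteins that carry drugs and small lipids, lipocalin 2 binds the siderophores of bacteria, and haptoglobin binds free haemoglobin. CRP is a pentraxin that is a major acute phase protein in humans but responds little in mice.

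Levels are given as FPKM, fragment numbers divided by transcript length and by library depth, so that genes can be compared per length. A gene is called changed where limma on log2(FPKM + 1) gave a Benjamini-Hochberg adjusted p under 0.05 over the 12225 genes whose mean reached 0.5 FPKM, and a log2 fold change is TRIM24C52/55A minus WT on that scale. In the same fit 744 genes were called lower, 6.09% of those tested, and 200 were called higher, 1.64%. Groups that did not overlap were common, with all 3 TRIM24C52/55A libraries below all 3 WT libraries in 22.5% of genes tested and above them in 6.31%. The split of calls moved with the scaling, to 411 lower and 249 higher with median-of-ratios scaling and to 378 lower and 255 higher with quantile normalization. From the size of the smallest FPKM steps each library held an estimated 15600000 to 16700000 fragments. *Trim24* itself was at 5.54, 4.85 and 5.96 FPKM in WT livers and at 6.15, 4.31 and 8.46 FPKM in TRIM24C52/55A livers (replicates 1, 2 and 3 in this order, as in all values below, log2 fold change 0.14, limma adjusted p = 0.713), and since the allele exchanges codons this level does not check the labels. The liver label was checked with hepatocyte markers, whose summed level was 8465 to 9535 FPKM in WT and 7600 to 7984 FPKM in TRIM24C52/55A libraries. One library stood apart, since TRIM24C52/55A replicate 2 held 4.55 FPKM of the adipocyte hormone gene *Adipoq*, against at most 0.127 FPKM in the other 5 libraries.

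Several of the genes are close copies, and a stretch of each pair is shown because reads can be told apart only where the copies differ. In GRCm38 the *Saa* cluster spans 42.3 kb of chromosome 7 (46711998 to 46754313), in the order *Saa3*, *Saa4*, *Saa1* and *Saa2*, with *Saa2* on the plus strand and the other 3 on the minus strand. The *Orm* cluster spans 21.3 kb of chromosome 4 (63344560 to 63365878), in the order *Orm1*, *Orm3* and *Orm2*, all on the plus strand. The *Saa1* and *Saa2* transcripts of GENCODE M21 were 94.4% identical over 606 aligned bases, and *Orm1* and *Orm2* were 91.0% identical over 775 aligned bases. Of the windows of 50 bases along *Saa1*, 13.2% also occurred in *Saa2*, and of the windows of 100 bases none of 510 did. For *Orm1* and *Orm2* these shares were 20.4% and 6.95%. The following coding stretches of 30 bases, from exon 3 of 4 of each *Saa* gene and exon 2 of 6 of each *Orm* gene, carry in capitals the bases that differ within the pair, 6 for *Saa* and 10 for *Orm*.
Saa1, chr7:46741337-46741366, minus strand: tgacatgaaggaagctAActggaaaAaCTC
Saa2, chr7:46753446-46753475, plus strand: tgacatgaaggaagctGGctggaaaGaTGG
Orm1, chr4:63345091-63345120, plus strand: tGggtgcAgctTtcAGaaaAcTCgaGtacA
Orm2, chr4:63362966-63362995, plus strand: tTggtgcGgctGtcCTaaaCcCTgaTtacC
How reads shared by such copies were assigned is not given in the sources used here, so the level of a single copy is less certain than that of its family, and family sums are given beside the single genes.

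Promoters were read from RefSeq on GRCm38.p6, as 250 bases before to 50 bases after the gene start, and 8 of the 10 genes matched, all but *Hp* and *Orm1*. They are shown because 4 of the called genes have a promoter in this table and can be compared there. The *Saa1* and *Saa2* promoters were 96.0% identical and those of *Orm2* and *Orm3* 89.2% identical, so neither pair counts as independent sequences, whereas *Saa1* was 59.8% identical to *Saa3* and 55.3% to *Saa4*. Both strands were searched for TTGCNNAA, a core of the C/EBP motif, which was present in 7 of the 8 promoters (all but *Crp*) and in 10.8% of all 32851 promoters of that length. A STAT core, TTCNNNGAA, was in 0 of the 8 and in 8.30% of all promoters, and an NF-kB core, GGNNNTTCC, was in 1 of the 8 (*Saa3*) and in 18.5% of all promoters. The letters of the motifs were chosen after the values of the genes were known, and a match is only a match of letters. The windows below show the C/EBP match in capitals for the 4 genes with the largest falls and for *Orm3*.
Saa1, chr7:46743144-46743173, minus strand: ctgtgctcccaTTGCACAAtgagggagaat
Saa2, chr7:46751639-46751668, plus strand: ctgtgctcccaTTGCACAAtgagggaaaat
Orm2, chr4:63362318-63362347, plus strand: gagagaacattTTGCGCAAgacatttccca
Orm3, chr4:63356026-63356055, plus strand: gagggaacattTTGCACAAgacatttatca
Lcn2, chr2:32387937-32387966, minus strand: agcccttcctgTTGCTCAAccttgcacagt
Counted from the RefSeq start, the matches began at positions -182 and -183 in *Saa1* and *Saa2*, at -120 and -121 in *Orm2* and *Orm3* and at -216 in *Lcn2*. *Saa4*, which was not called, also held the letters, at -245 and -52. The RefSeq start is not always the start of the interval that the files and GENCODE M21 give. It lies 43 bases downstream of that start in *Saa2*, where the match is then at -140, 4 bases upstream in *Orm3*, where it is at -125, and 513 bases downstream in *Lcn2*, where the match lies inside the interval, 297 bases after its start.

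The first comparison asked which acute phase genes differ between the genotypes. *Saa1*, *Saa2*, *Orm2*, *Lcn2* and *Hp* fell in the TRIM24C52/55A liver, with mean levels 1.56-fold (*Hp*) to 6.13-fold (*Saa2*) lower than in WT, and none of the 10 genes was called higher. *Saa3*, *Crp*, *Orm1* and *Saa4* were tested and not called, and *Orm3* was under the filter on low values. The 5 calls among the 9 genes that passed the filter stand beside 6.09% called lower of all genes tested. Since the genes were chosen with earlier results of these data known, this and the next shares are a description and not a test. The log2 fold change was negative in all 9, with a median of -0.77, against -0.08 over all genes tested. In 7 genes the groups did not overlap, with the TRIM24C52/55A libraries lower in each, beside 22.5% of all genes tested, and the unadjusted limma p was under 0.05 in the same direction in 7 genes, beside 19% of all genes tested, and in the other direction in 0, beside 4.63%. The exact two-sided permutation test on FPKM gave p = 0.1 for each of these 7, the smallest p that 3 against 3 allows. In bulk liver RNA, fewer cells of a type and less RNA per cell cannot be told apart.

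**Figure D1:**
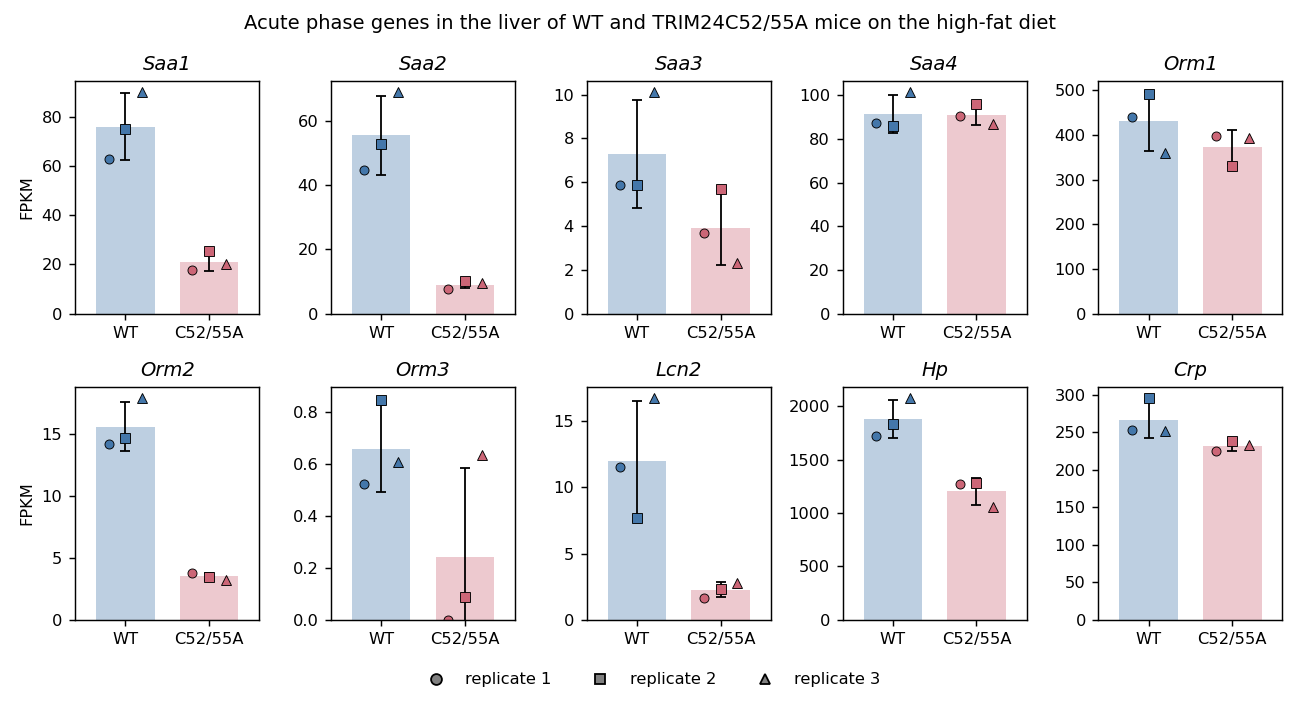
FPKM of each of the 10 genes (linear vertical axes, each from 0) in the 3 WT and the 3 TRIM24C52/55A (C52/55A) livers, with bars at the mean, error bars of 1 SD and 1 symbol per replicate, those of *Orm3* being cut at 0. The groups are apart in 7 panels and overlap for *Saa4*, *Orm1* and *Orm3*.

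*Saa1*, on chromosome 7 from 46740497 to 46742980, had 62.9, 75.0 and 90.0 FPKM in WT and 17.7, 25.3 and 20.2 FPKM in TRIM24C52/55A livers. The lowest WT library was above the highest TRIM24C52/55A library. The means were 76.0 ± 13.6 and 21.1 ± 3.87 FPKM (SD, n = 3 each), a 3.60-fold lower level in TRIM24C52/55A, with a log2 fold change of -1.80 (SE 0.16, 95% confidence interval -2.16 to -1.44, limma adjusted p = 0.00104). *Saa2*, next to it on chromosome 7 from 46751790 to 46754313, had 44.8, 52.6 and 68.9 FPKM in WT and 7.69, 10.05 and 9.40 FPKM in TRIM24C52/55A livers. Its groups were the farthest apart of the 10 genes on the log2 scale, at -2.47 (SE 0.16, interval -2.84 to -2.11, limma adjusted p = 0.00022), with means of 55.4 ± 12.3 and 9.05 ± 1.22 FPKM. Among all 12225 genes tested it ranked 5th by the size of the fall.

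The sum of *Saa1* and *Saa2*, which does not depend on how reads are split between them, was 131 ± 25.8 FPKM in WT and 30.1 ± 4.99 FPKM in TRIM24C52/55A livers, 4.36-fold lower (log2 fold change -2.08, SE 0.16, limma adjusted p = 0.000506). *Saa1* made up 58.4, 58.8 and 56.6% of this sum in the WT libraries and 69.7, 71.6 and 68.2% in the TRIM24C52/55A libraries. The shares did not overlap (exact permutation p = 0.1, the smallest possible), but they rest on the split of reads between the copies.

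*Saa3*, on chromosome 7 from 46711998 to 46715700, had 5.85, 5.85 and 10.1 FPKM in WT and 3.68, 5.69 and 2.33 FPKM in TRIM24C52/55A livers. The groups were barely apart, since the lowest WT value was 1.03 times the highest TRIM24C52/55A value, and the log2 fold change of -0.77 (SE 0.27, interval -1.40 to -0.15) was not called (limma adjusted p = 0.131). *Saa3* is also transcribed in fat and in macrophages. TRIM24C52/55A replicate 2, which set the top of its group, was the library with adipocyte transcripts. Its summed adipocyte markers were 75.0 FPKM, against 14.6 and 19.9 FPKM in the other TRIM24C52/55A libraries and 20.6 to 28.3 FPKM in WT. Of that sum *Fabp4* held 45.5 FPKM, and in replicates 1 and 3 *Adrb3* held 7.81 and 10.6 FPKM of theirs. In replicate 2 *Cfd* (2.54 FPKM) was below every WT library, and *Cidea* (0.889 FPKM) lay within the WT range. Summed macrophage markers were also highest of the group in replicate 2, at 193 FPKM against 144 and 145 FPKM (166 to 216 FPKM in WT). Without replicate 2 *Saa3* was called lower (log2 fold change -1.03, limma adjusted p = 0.0445). The part of adipocyte and of macrophage transcripts in its level was not tested.

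*Saa4*, on chromosome 7 from 46727998 to 46732603, had 87.1, 85.7 and 101 FPKM in WT and 90.5, 96.1 and 86.8 FPKM in TRIM24C52/55A livers. The groups overlapped throughout, with means of 91.4 ± 8.66 and 91.1 ± 4.67 FPKM. The interval of the log2 fold change ran from -0.20 to 0.20 (limma adjusted p = 0.993). The interval of *Saa2*, in the same cluster, lay wholly below this one. As a share of the summed *Saa* level, *Saa4* was 40.0 ± 3.06% in WT and 72.9 ± 2.81% in TRIM24C52/55A livers (exact permutation p = 0.1), and the summed level of the 4 genes was 45.6% lower. *Saal1* and *Hps5*, the annotated neighbours of the *Saa* cluster, were chosen for their position and were not called (log2 fold changes -0.13 and -0.20, limma adjusted p = 0.622 and 0.380).

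Of the orosomucoids *Orm2* fell, the far more abundant *Orm1* was not called, and *Orm3* was too scarce to test. *Orm1*, on chromosome 4 from 63344560 to 63348163, had 439, 490 and 360 FPKM in WT and 397, 330 and 392 FPKM in TRIM24C52/55A livers. The groups overlapped (log2 fold change -0.20, SE 0.13, interval -0.49 to 0.09, limma adjusted p = 0.399). *Orm2*, on chromosome 4 from 63362449 to 63365878, had 14.2, 14.7 and 17.8 FPKM in WT and 3.78, 3.49 and 3.21 FPKM in TRIM24C52/55A livers. Every WT library was far above every TRIM24C52/55A library, and the spread within each group was small (15.6 ± 1.99 and 3.49 ± 0.282 FPKM). *Orm2* had the lowest adjusted p of the 10 genes (4.46-fold lower, log2 fold change -1.88, SE 0.11, limma adjusted p = 0.000132).

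*Orm3*, on chromosome 4 from 63356162 to 63359511, had 0.522, 0.847 and 0.607 FPKM in WT livers, was not listed in TRIM24C52/55A replicate 1, where it was set to 0, and had 0.0884 and 0.634 FPKM in replicates 2 and 3. The last of these values lay within the WT range, and those of replicates 2 and 3 stand for an estimated 1.09 and 7.66 fragments. With a mean of 0.450 FPKM it was under the filter, and at this depth no difference was detectable (exact permutation p = 0.3, and in the fit without a filter log2 fold change -0.45, limma adjusted p = 0.326). *Orm1* made up 96.3 ± 0.997% of the summed orosomucoid level in WT and 99.0 ± 0.0672% in TRIM24C52/55A livers, so the sum followed *Orm1* (446 ± 64.1 and 377 ± 37.3 FPKM, log2 fold change -0.24, SE 0.12, limma adjusted p = 0.291). The fall of *Orm2* was thus a fall of a copy that held 3.58% of the family's level in WT. Of the neighbours of the *Orm* cluster, *Akna* was not called (log2 fold change -0.12, limma adjusted p = 0.525) and *Col27a1*, a fibrillar collagen gene, rose from 3.60 ± 0.445 to 6.49 ± 0.997 FPKM (log2 fold change 0.70, limma adjusted p = 0.0165).

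*Lcn2*, on chromosome 2 from 32384633 to 32388252, had 11.6, 7.68 and 16.7 FPKM in WT and 1.65, 2.36 and 2.77 FPKM in TRIM24C52/55A livers. Relative to the mean its WT libraries were the most spread among the 5 genes called (SD 37.8% of the mean), but the lowest of them was still above every TRIM24C52/55A library. The means of 11.99 ± 4.53 and 2.26 ± 0.565 FPKM were 5.31-fold apart (log2 fold change -1.95, SE 0.25, interval -2.52 to -1.38, limma adjusted p = 0.0048). *Lcn2* is also carried by neutrophils. The neutrophil genes *S100a8* and *S100a9* had 2.46 ± 0.742 and 5.77 ± 2.73 FPKM in WT and 1.15 ± 0.675 and 3.50 ± 2.14 FPKM in TRIM24C52/55A livers, with overlapping groups and no call (limma adjusted p = 0.111 and 0.442). Of the 10 neutrophil markers 3 were tested and 0 called by limma (1 lower at an unadjusted p under 0.05), and the summed level was 6.05 to 13.6 FPKM in WT and 3.18 to 9.51 FPKM in TRIM24C52/55A libraries. Of the 9 markers with values, 6 had a lower mean in TRIM24C52/55A livers (*S100a8*, *S100a9*, *Csf3r*, *Cxcr2*, *Elane* and *Retnlg*) and 3 a higher mean (*Ly6g*, *Mpo* and *Ngp*). Of the defining genes that were near 0, *Ly6g* was at most 0.153 FPKM, *Mpo* at most 0.0684 FPKM and *Elane* at most 0.380 FPKM in any library. WT replicate 3, the highest for *Lcn2*, was the lowest WT library for *S100a8*, *S100a9* and the summed neutrophil markers, whereas TRIM24C52/55A replicate 3 was the highest of its group for *Lcn2* and for all 3 of these measures. The part of neutrophils in the level of *Lcn2* was not tested.

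*Hp*, on chromosome 8 from 109575128 to 109579172, was the most abundant of the 10 genes, with 1725, 1833 and 2075 FPKM in WT and 1268, 1284 and 1055 FPKM in TRIM24C52/55A livers. All 3 TRIM24C52/55A libraries were below all WT libraries. The fall was small on the log2 scale (-0.64, SE 0.11, interval -0.90 to -0.39, limma adjusted p = 0.0136) and the largest in FPKM. It made up 75.6% of the difference between the summed levels of the 10 genes, which were 2832 ± 176 FPKM in WT and 1938 ± 116 FPKM in TRIM24C52/55A livers, 31.6% lower.

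*Crp*, on chromosome 1 from 172698055 to 172833031, had 252, 295 and 252 FPKM in WT and 225, 238 and 234 FPKM in TRIM24C52/55A livers. Its groups did not overlap but lay close together, and it was not called (log2 fold change -0.20, SE 0.08, limma adjusted p = 0.211). The files and GENCODE M21 both give *Crp* an interval of 135 kb, the longest of the 10 genes.

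By level per length the order in WT was *Hp*, *Orm1*, *Crp*, *Saa4*, *Saa1*, *Saa2*, *Orm2*, *Lcn2*, *Saa3* and *Orm3*. Neighbours whose WT libraries overlapped were *Saa4* and *Saa1*, *Saa1* and *Saa2*, *Orm2* and *Lcn2*, and *Lcn2* and *Saa3*. In TRIM24C52/55A livers the first 6 kept their order, while *Saa3*, at 3.90 ± 1.69 FPKM, came before *Orm2* and *Lcn2*, its libraries overlapping with those of both. Among all genes tested *Hp* went from rank 60 by mean level in WT to 81 in TRIM24C52/55A livers, *Saa1* from 950 to 2462, *Saa2* from 1247 to 4609, *Orm2* from 3316 to 7557 and *Lcn2* from 3939 to 8784. By the size of the fall *Lcn2*, *Orm2* and *Saa1* ranked 18th, 20th and 24th of 12225 genes.

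The next question was whether single libraries carried these differences. Each of the 6 libraries was left out in turn and the whole table was fitted again, the fold on mean FPKM being computed with it. *Saa1*, *Saa2*, *Orm2*, *Lcn2* and *Hp* were called lower in 6 of 6 of these fits. The fold by which the mean was lower ranged from 3.27 to 4.01 for *Saa1*, from 5.38 to 6.72 for *Saa2*, from 4.13 to 4.66 for *Orm2*, from 4.26 to 6.26 for *Lcn2* and from 1.47 to 1.63 for *Hp*. The lowest folds of *Saa1*, *Saa2*, *Orm2* and *Lcn2* came without WT replicate 3. *Hp* came nearest to losing its call, with limma adjusted p from 0.0194 to 0.0482. *Saa3* was called in 1 of the 6, that without TRIM24C52/55A replicate 2, and its fold ranged from 1.501 to 2.42. *Crp*, *Orm1* and *Saa4* were called in 0 of 6, and *Saa4* was the gene whose sign varied.

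**Figure D2:**
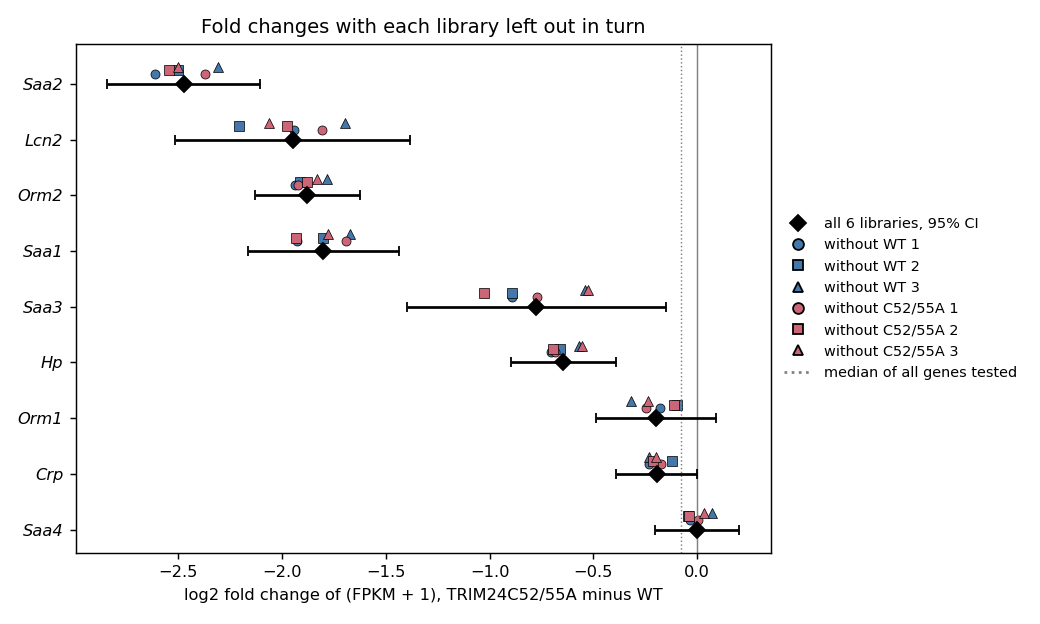
Log2 fold change of (FPKM + 1), TRIM24C52/55A minus WT, for the 9 genes tested, with all 6 libraries (black diamonds, 95% confidence intervals) and with each library left out (coloured symbols). The symbols of *Saa2*, *Lcn2*, *Orm2*, *Saa1* and *Hp* stay left of 0 and of the dotted median of all genes tested (-0.08). So do those of *Saa3*, *Crp* and *Orm1*, which were not called with all 6 libraries, and those of *Saa4* fall on both sides of 0.

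The libraries were also ordered alike for several genes, which is given as a description. WT replicate 3 was the highest WT library for 7 of the 9 genes tested, and for the other 2, *Orm1* and *Crp*, it was the lowest. TRIM24C52/55A replicate 2 was the highest of its group for 6 of the 9, *Saa1*, *Saa2*, *Saa3*, *Saa4*, *Hp* and *Crp*. Over the 10 pairs among the 5 called genes, Pearson's r over the 6 libraries was 0.90 to 0.996, which the shared difference between genotypes alone makes high. After the genotype means were taken away r ranged from 0.13 to 0.93, with *Saa1* and *Saa2*, the close copies, at 0.93. The points share libraries and depth, and n is 6. Outside the lists, the genes with profiles most like the mean standardized profile of the 9 genes tested were *Nudt1*, *Rnf7*, *Sgsm1*, *Perp* and *H2afj* (Pearson's r over 6 libraries 0.993 to 0.9997). *Nudt1*, a nucleotide pool hydrolase gene, had 19.1 ± 1.28 FPKM in WT and 12.7 ± 0.692 FPKM in TRIM24C52/55A livers.

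**Figure D3:**
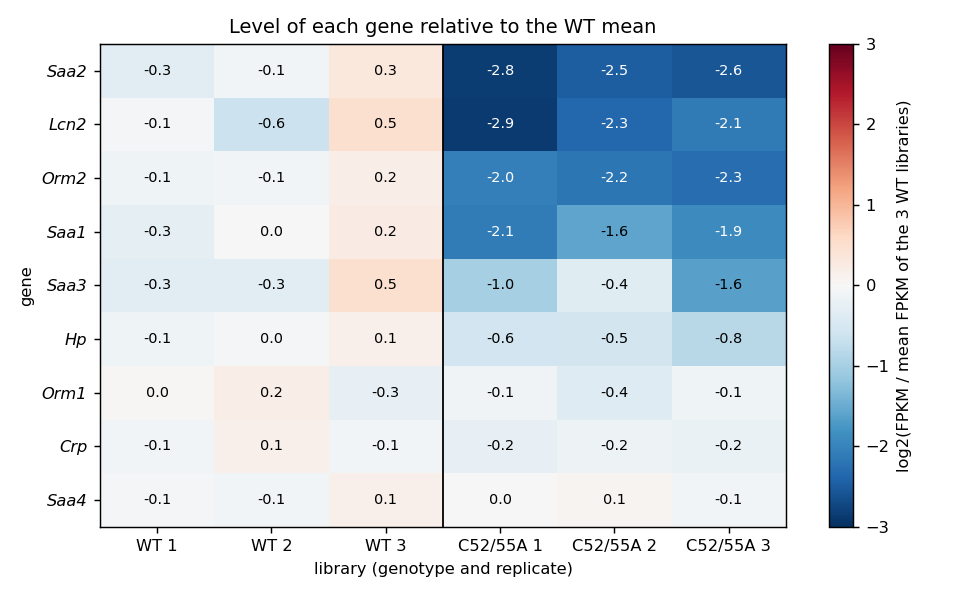
Level of the 9 genes tested in each library, as log2 of FPKM over the mean FPKM of the 3 WT libraries, with the genes ordered by the size of the fall. The *Saa2*, *Lcn2*, *Orm2* and *Saa1* cells are blue in all 3 TRIM24C52/55A libraries, and the *Saa4* cells are near 0 in all 6.

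The genes around these 10 in the acute phase pathway were taken from 7 lists of 80 genes, of which 70 were tested, 9 called lower and 2 called higher. All counts by list below stand beside 6.09% called lower and 1.64% called higher of all genes tested, and beside 19% and 4.63% at an unadjusted p under 0.05. Of 24 other positive acute phase genes, all tested, 5 fell and 1 rose (10 lower and 3 higher at an unadjusted p under 0.05), with a median log2 fold change of -0.20. *Mt1* and *Mt2*, which encode metallothioneins that bind zinc and copper, fell from 18.6 ± 1.97 to 4.79 ± 0.745 FPKM and from 6.62 ± 1.32 to 1.57 ± 0.726 FPKM (log2 fold changes -1.76 and -1.60, limma adjusted p = 0.000333 and 0.00608). *Il1rn*, the interleukin 1 receptor antagonist, fell by 0.99 on the log2 scale, the protease inhibitor gene *Serpina3m* by 0.91 and *Apcs*, the serum amyloid P pentraxin, by 0.56 (limma adjusted p = 0.0178, 0.0143 and 0.0223). *Hamp*, encoding the iron hormone hepcidin and itself induced by interleukin 6, rose from 841 ± 28.8 to 1327 ± 230 FPKM (log2 fold change 0.64, limma adjusted p = 0.021).

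The other large plasma proteins of the response were not called. *Fgb*, a fibrinogen chain gene, had 867 ± 102 FPKM in WT and 1069 ± 138 FPKM in TRIM24C52/55A livers, with overlapping groups (log2 fold change 0.30, limma adjusted p = 0.188). For *Fga* and *Fgg*, the other 2 chains, all TRIM24C52/55A libraries were above all WT libraries (log2 fold changes 0.23 and 0.28, limma adjusted p = 0.233 and 0.158). *Hpx*, encoding the haem carrier hemopexin, had 1989 ± 72.0 and 1675 ± 132 FPKM, with groups that did not overlap (log2 fold change -0.25, limma adjusted p = 0.129). *Serpina3n* had 187 ± 7.99 and 161 ± 34.4 FPKM (log2 fold change -0.24, limma adjusted p = 0.347). Its TRIM24C52/55A libraries were at 140, 143 and 201 FPKM, and without replicate 3 it was called lower (log2 fold change -0.41, limma adjusted p = 0.0305). Of 10 genes whose proteins decline in the acute phase, 9 were tested, 2 fell and 0 rose (3 lower and 2 higher at an unadjusted p under 0.05, median -0.06). These were *Serpina6*, encoding corticosteroid-binding globulin, from 162 ± 32.2 to 57.3 ± 14.6 FPKM (log2 fold change -1.49, limma adjusted p = 0.0048), and the HDL protein gene *Apoa2*, by 0.60 on the log2 scale (limma adjusted p = 0.00948). *Ttr*, encoding transthyretin, was not called (log2 fold change -0.18, limma adjusted p = 0.318), and *Alb* was not analysed here.

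The signals upstream of these genes were read list by list, beside the shares over all genes tested given above. Of 9 inducing cytokines 3 were tested and limma called 0 (2 lower at an unadjusted p under 0.05, median -0.44). *Il1b* had 1.39, 5.01 and 3.01 FPKM in WT and 0.711, 1.22 and 0.803 FPKM in TRIM24C52/55A livers. Its groups did not overlap but its WT libraries were widely spread, and it was not called (log2 fold change -1.02, limma adjusted p = 0.0753). In 3 of 15 other settings *Il1b* was called lower. *Il6* was at most 0.292 FPKM in any library and under the filter. Of 10 cytokine receptor genes 9 were tested (2 lower and 2 higher at an unadjusted p under 0.05), and *Lifr*, the leukaemia inhibitory factor receptor that signals with gp130, rose from 17.4 ± 2.64 to 42.1 ± 2.15 FPKM (log2 fold change 1.23, limma adjusted p = 0.0011), while *Il6ra* and *Il6st*, which encode the interleukin 6 receptor and gp130, were not called (0.18 and 0.12, limma adjusted p = 0.691 and 0.636).

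Of 11 signal transducer and feedback genes, all tested, limma called 0 (2 lower and 0 higher at an unadjusted p under 0.05, median -0.05). *Stat3* had 30.8 ± 3.04 and 29.0 ± 1.697 FPKM, and *Socs3*, a feedback target of STAT3, had 2.62 ± 0.908 and 3.25 ± 0.643 FPKM in WT and TRIM24C52/55A livers. *Nfkbia*, a feedback target of NF-kB, had 21.0 ± 2.35 and 16.5 ± 4.69 FPKM. Their limma adjusted p were 0.655, 0.504 and 0.285. Of 7 hepatic transcription factors 2 fell (2 lower and 0 higher at an unadjusted p under 0.05), *Cebpb* from 22.2 ± 4.76 to 11.3 ± 3.44 FPKM and *Cebpd* from 3.05 ± 0.280 to 1.53 ± 0.455 FPKM (log2 fold changes -0.94 and -0.69, limma adjusted p = 0.0428 and 0.0248), and *Cebpa* was not called (-0.25, limma adjusted p = 0.436). The files give *Cebpb* and *Cebpd* intervals of 137.1 and 259.6 kb, against 1.5 and 3.7 kb in GENCODE M21, *Hamp* 56.5 kb against 1.7 kb, *Mt2* 2.8 kb against 0.9 kb, *Fgg* 138.3 kb against 7.3 kb and *Ttr*, the most abundant of the hepatocyte markers summed above, 116.3 kb against 9 kb, as well as *Hpd*, another of those markers, 202.8 kb against 10.9 kb, so their FPKM may hold reads from outside the annotated gene. The call of *Cebpb* was kept in 5 of 15 other settings, that of *Cebpd* and that of *Apcs* in 9, that of *Hamp* in 10, those of *Il1rn* and *Serpina3m* in 11 and that of *Apoa2* in 13. *Mt1*, *Mt2*, *Serpina6* and *Lifr* were called in all 15. Of the receptors of the secreted proteins, 7 of 9 were tested and limma called 0 (1 lower at an unadjusted p under 0.05, median -0.13), among them *Cd163*, the haemoglobin scavenger receptor of macrophages (log2 fold change -0.19, limma adjusted p = 0.289).

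**Figure D4:**
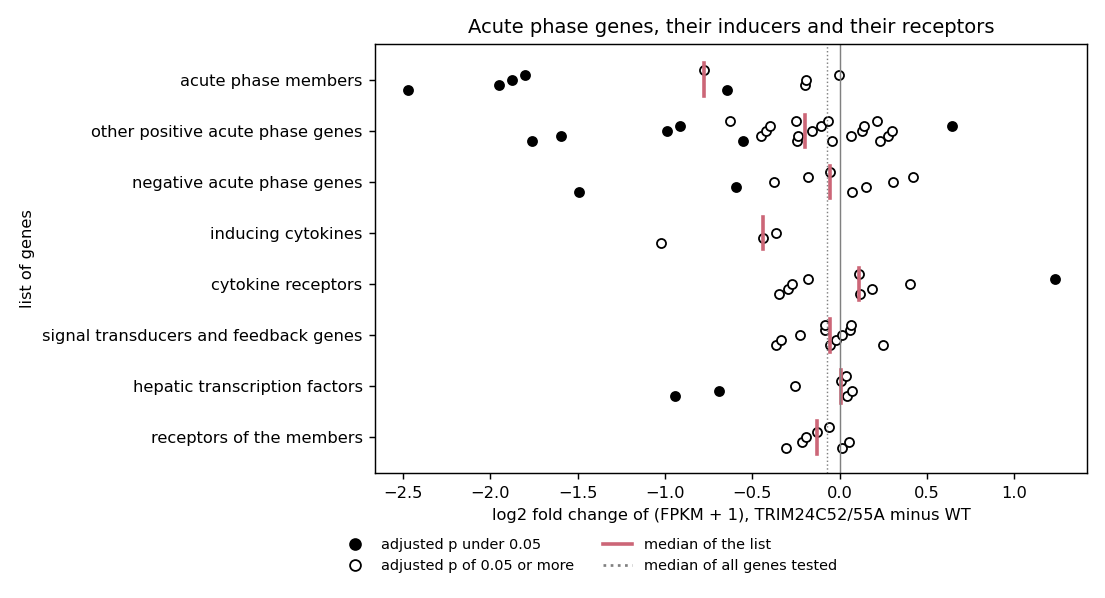
Log2 fold change of (FPKM + 1), TRIM24C52/55A minus WT, for the 9 acute phase genes tested (top row) and the 70 tested genes of 7 other lists, with filled points for an adjusted p under 0.05 and red bars at the list medians. The median of the acute phase genes is -0.77, and those of the other lists lie between -0.44 (inducing cytokines) and 0.11 (cytokine receptors).

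Markers of other liver cells were read beside these results. All 8 macrophage markers were tested and had a lower mean in TRIM24C52/55A livers (median log2 fold change -0.26), limma called 0 (2 lower at an unadjusted p under 0.05), and their summed level was 166 to 216 FPKM in WT and 144 to 193 FPKM in TRIM24C52/55A libraries. The Kupffer cell genes *Adgre1* and *Clec4f* had log2 fold changes of -0.20 and -0.24 (limma adjusted p = 0.448 and 0.258). Summed cholangiocyte markers ranged from 28.5 to 53.8 and from 21.8 to 34.0 FPKM, and endothelial markers from 83.9 to 92.3 and from 76.4 to 85.2 FPKM, in WT and TRIM24C52/55A libraries. The cholangiocyte sum was mostly *Spp1* (means of 34.4 and 22.2 FPKM), while *Sox9* had the higher mean in TRIM24C52/55A livers (1.55 and 2.72 FPKM). Lower means in TRIM24C52/55A livers were seen in 4 of 6 cholangiocyte, 5 of 6 endothelial and 6 of 7 B and plasma cell markers. B and plasma cell markers ranged from 19.0 to 25.8 FPKM in WT and from 12.8 to 16.2 FPKM in TRIM24C52/55A libraries, but the files give *Igkc*, which had the highest mean of these, 21.5 kb against 0.5 kb in GENCODE M21. The part of these cells in the levels of *Saa3* and the other genes was not tested. Without TRIM24C52/55A replicate 2, the library with adipocyte transcripts, 6 of the 9 genes were called lower, the 5 named above and *Saa3*, and 18 of the 70 tested genes of the other lists were called in place of 11. Over all 12225 genes that fit called 1033 lower and 239 higher, in place of 744 and 200.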

How the data were processed

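Liver RNA of 3 WT and 3 TRIM24C52/55A mice was analysed from 1 table per mouse. The authors deposited FPKM, listing genes with values above 0, and a gene missing from a library was set to 0. The submitters' processing notes name GRCm38, bcl2fastq, Salmon 0.14.0 and DESeq2 1.30.0 without their role, and the FPKM tool, aligner and annotation are not given in the sources used here. Estimated depth (15600000 to 16700000 fragments) came from the smallest FPKM steps of single-transcript genes.

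The 12225 of 21528 genes whose mean reached 0.5 FPKM were tested as log2(FPKM + 1), which understates changes of low genes, with limma 3.58.1 in R 4.3.3 (lmFit, eBayes with trend, Benjamini-Hochberg), checked on simulated data. Single genes had an exact permutation test, and p-values measure the spread between 3 mice per genotype. The rest used scipy 1.17.1, pandas 2.3.3, Biopython 1.88, numpy 2.4.6 and matplotlib 3.10.9 in Python 3.11.15. Exons come from GENCODE M21 and promoters from RefSeq (GRCm38.p6).

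The members, lists and rules were chosen with earlier results of these data known. The rule named all 10 members, at most 6 called genes per list, a fixed set of pathway and marker genes and the 5 genes with the most similar profile. Cluster neighbours, *Fga*, *Fgg*, *Hpd*, *Igkc*, the neutrophil markers other than *S100a8* and *S100a9* and the motifs were added after values were seen. Alternatives were other pseudocounts, filters, scalings (TPM included) and variance models, the replicate block, and each library left out.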

Additional observations from a re-analysis of the deposited data

How the results depend on the processing

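*Saa1*, *Saa2*, *Orm2* and *Lcn2* were called lower in 15 of 15 alternatives, with log2 fold changes of -1.93 to -1.66, -2.61 to -2.31, -2.12 to -1.78 and -2.32 to -1.69. *Hp* was called in 14 (-0.72 to -0.54), and without a filter its limma adjusted p was 0.0621. *Saa3* was called in 1, and *Crp*, *Orm1* and *Saa4* in 0. The number of the 10 genes called ranged from 4 without a filter to 6 without TRIM24C52/55A replicate 2. The count over all genes moved more. It was 944 (744 lower, 200 higher) as reported, 347 (252 lower, 95 higher) without a filter and 1555 (1358 lower) with TPM. The lower calls were 411 with median-of-ratios scaling and 378 with quantile normalization. With each library left out the calls ranged from 296 to 1272, the lower calls from 202 to 1033 and the higher calls from 88 to 239. The total was 313, 480 and 301 without WT replicates 1, 2 and 3, 296 without TRIM24C52/55A replicate 1 and 1272 without TRIM24C52/55A replicate 2. The 11 calls in the other lists became 4 without a filter and ranged from 5 (without WT replicate 3) to 18 (without TRIM24C52/55A replicate 2) with libraries left out. The cause of these shifts was not tested. The labels number the mice of both genotypes alike, but deviations of same-numbered libraries from their group means correlated at -0.123, -0.099 and 0.003, so these data did not show that the numbers pair the mice, and no label says that they do. With the replicate block 578 genes were called (422 lower), among them 5 of the 10 genes. FPKM keep no counts, so low genes such as *Orm3*, *Il6* and the neutrophil markers are limited by depth.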

Other observations

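Among the cell type markers read for the composition of the tissue, limma called 4 genes, 2 of them hepatocyte markers (*Cps1* and *Asgr1*). Of 7 hepatocyte markers tested 1 was called higher and 1 lower, of 7 adipocyte markers 1 higher and of 6 endothelial markers 1 lower. In the other cell type lists 0 were called. These counts stand beside 6.09% called lower and 1.64% called higher of all genes tested. The hyaluronan receptor gene *Lyve1*, of sinusoidal and lymphatic endothelium, fell from 6.21 ± 1.89 to 2.07 ± 0.973 FPKM (SD, n = 3 each, log2 fold change -1.26, adjusted p = 0.0281). *Adrb3*, the beta-3 adrenergic receptor, rose from 2.07 ± 0.0893 to 10.3 ± 2.31 FPKM (log2 fold change 1.86, adjusted p = 0.000716), and it was higher in all 3 TRIM24C52/55A libraries, those without *Adipoq* included. *Cps1*, the entry enzyme of the urea cycle, rose from 321 ± 37.1 to 498 ± 78.0 FPKM (adjusted p = 0.0281). *Asgr1*, a subunit of the asialoglycoprotein receptor, fell from 318 ± 15.5 to 257 ± 13.7 FPKM (adjusted p = 0.0482). The genes were chosen after their values were seen.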
